A study of Homo sapiens with 6 samples.

Results

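The genes described here encode 5 cadherins, CDH1, CDH2, CDH3, CDH11 and CDH13, and 4 catenins, CTNNA1, CTNNB1, CTNND1 and JUP. They were taken by symbol from a table of raw counts and are 9 of its 56478 gene rows. The 6 libraries come from BT20, an established human breast cancer line of the triple negative class, grown in DMEM/F12 with fetal bovine serum. Of these, 3 carried a hairpin against cytokeratin 5 (shCK5-22) and 3 carried a control hairpin (shControl). Both hairpins were in a pLK0 vector, and the labels name no further treatment. The knockdown arm rests on 1 hairpin, so an effect of the hairpin itself and an effect of losing cytokeratin 5 cannot be told apart. The question the comparison addresses is how transcripts differ once KRT5, the cytokeratin 5 gene, is knocked down.

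Classical cadherins are calcium-dependent adhesion proteins of the adherens junction. Their outer domains bind cadherins of a neighbouring cell, and their cytoplasmic tails bind delta-catenin near the membrane and either beta-catenin or plakoglobin further along. Alpha-catenin ties this complex to actin. Beta-catenin also acts as the transcriptional partner of TCF and LEF factors in Wnt signalling, and plakoglobin also belongs to desmosomes, the junctions that anchor keratin filaments. CDH1 (E-cadherin) is the main cadherin of epithelia, CDH3 (P-cadherin) is typical of basal mammary cells, and CDH2 (N-cadherin) and CDH11 are known from mesenchymal cells. CDH13 (T-cadherin) is held by a lipid anchor and has no cytoplasmic tail.

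The coding sequence for the catenin-binding end of the tail is shown because it bears the family resemblance, and because reads from near-identical stretches could be credited to the wrong member. CDH13, which lacks the tail, is given for contrast. The 5 lines are stretches of 90 coding bases from GENCODE release 29 on GRCh38, each within 1 exon. For CDH1 the stretch lies 9 coding bases before the stop codon, and for the others it is the best ungapped match to it among the last 300 coding bases. Capitals mark the 43 positions at which CDH1, CDH2, CDH3 and CDH11 have the same base, and, in CDH13, those of the 43 that it shares.
CDH1, chr16:68833398-68833487, plus strand: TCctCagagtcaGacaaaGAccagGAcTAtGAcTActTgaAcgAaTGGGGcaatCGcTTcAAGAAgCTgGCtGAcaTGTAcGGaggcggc
CDH3, chr16:68698299-68698388, plus strand: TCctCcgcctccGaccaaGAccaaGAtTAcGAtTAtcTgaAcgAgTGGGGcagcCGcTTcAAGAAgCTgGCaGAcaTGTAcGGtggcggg
CDH2, chr18:27952162-27952251, minus strand: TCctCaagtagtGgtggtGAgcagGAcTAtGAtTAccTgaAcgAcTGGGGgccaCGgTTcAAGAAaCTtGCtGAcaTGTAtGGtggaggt
CDH11, chr16:64947627-64947716, minus strand: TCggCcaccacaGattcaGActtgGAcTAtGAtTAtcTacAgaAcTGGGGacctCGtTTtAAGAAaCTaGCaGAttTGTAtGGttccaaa
CDH13, chr16:83783370-83783459, plus strand: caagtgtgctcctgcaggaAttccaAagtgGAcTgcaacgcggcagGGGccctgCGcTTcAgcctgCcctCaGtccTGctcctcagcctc

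Relative to CDH1, the stretch was identical at 81.1% of bases in CDH3, 71.1% in CDH2, 58.9% in CDH11 and 38.9% in CDH13, which shared 18 of the 43 marked positions. Across whole transcripts, 0 windows of 50 bases were shared between any pair of the 9 members. Windows shared with other genes were at most 3.73% of a member's windows, for CTNND1, mainly with the read-through gene TMX2-CTNND1. TMX2-CTNND1 had 0 to 4 counts per library, and LRRTM2, which overlaps CTNNA1 exons on the opposite strand, had 0. Counts of AP001931.1 are not given here.

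KRT5, the targeted gene, stood at 21.05, 22.7 and 24.09 CPM (read counts scaled to the size of the library) in shCK5-22 and at 230.7, 246.6 and 244.3 CPM in shControl, so all 6 libraries matched their labels. Library totals ran from 47703937 to 65541734 counts. One knockdown library, shCK5-22 replicate 1, differed more from its fellows than any other, with a chi-square per degree of freedom of 33.7 and 19.8 against the other two, where the other pairs within a group lay between 3.47 and 5.08. Member results without it are therefore given beside the full ones. Leukocyte markers summed to between 6.87 and 8.83 CPM in shCK5-22 and between 6.49 and 6.91 CPM in shControl, with MS4A1 and CD68 at 0 in every library. Of the 10 leukocyte markers 4 were tested, and 1 rose: ITGAM, an integrin of myeloid cells, stood at 2.23 ± 0.336 CPM in shCK5-22 and 0.928 ± 0.211 CPM in shControl (log2 fold change 1.27, edgeR adjusted p = 4.88e-05).

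The abundant cadherins and most catenins were lower in the knockdown cells, beta-catenin was level, and CDH11 was higher from a very low base. Of the 9 members, all of which passed the filter on low counts, 5 fell, 1 rose and 3 did not pass the test. The share of all 18008 tested genes past the test was 34.2%, with 17.4% higher and 16.8% lower. The groups did not overlap for 6 members, against 45.1% of all tested genes. Of the 6 members with a mean of at least 100 CPM, 5 fell. Among all 2183 genes at that level, 36.9% were higher and 20.7% lower. Changes were tested with edgeR's quasi-likelihood test, fitted to the whole table, with Benjamini-Hochberg adjustment over all genes tested and a threshold of 0.05.

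**Figure D1:**
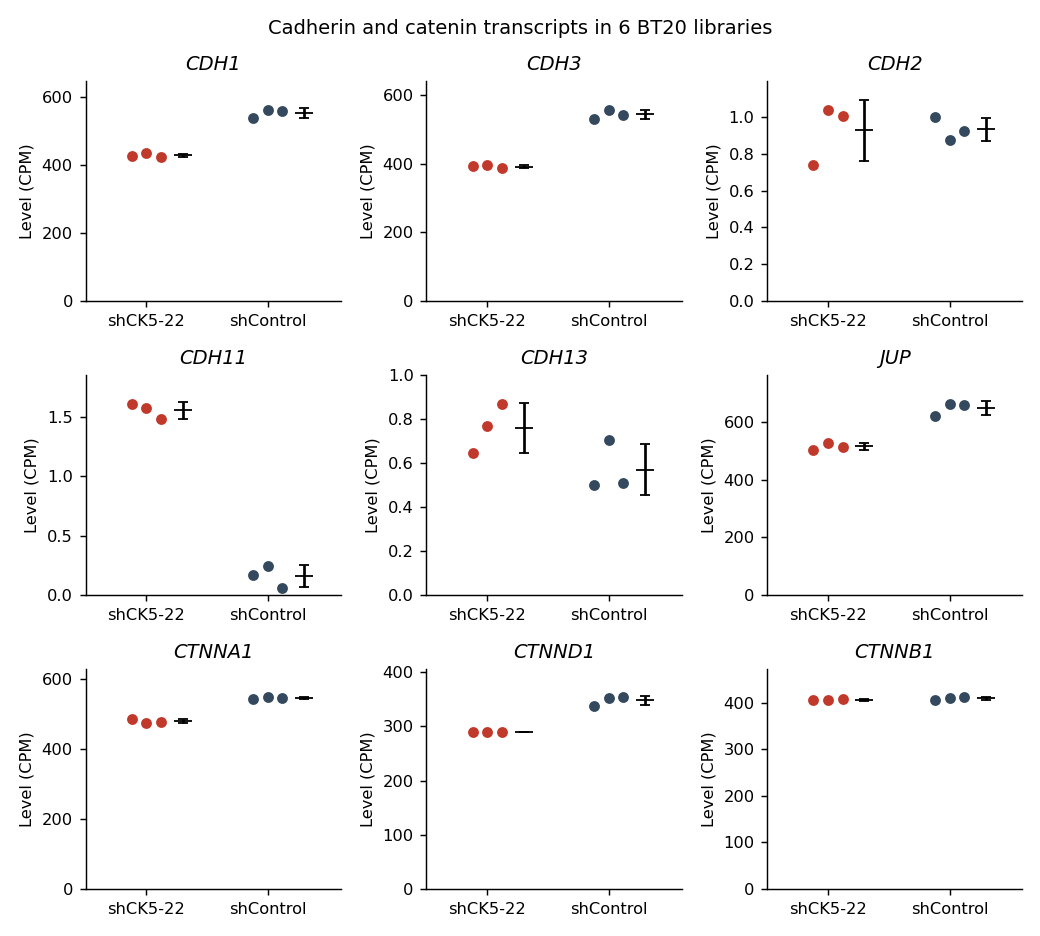
Levels of the 9 members in CPM (vertical axes, from 0) in the 3 shCK5-22 and 3 shControl libraries. Points are libraries, and the black bar is the mean ± SD of each group. The groups are fully apart for CDH1, CDH3, JUP, CTNNA1, CTNND1 and CDH11, and overlap for CDH2, CDH13 and CTNNB1.

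CDH1 (chromosome 16, 68737225 to 68835548, plus strand, GRCh38), the E-cadherin gene, stood at 427.8, 434.3 and 423.9 CPM in shCK5-22 and at 537.2, 562.6 and 560.3 CPM in shControl. Every knockdown library lay below every control library. The means were 429 ± 5.25 CPM in shCK5-22 and 553 ± 14.06 CPM in shControl (SD, n = 3 each), a fall by 0.37 on the log2 scale, or 22.5% (SE 0.0283, edgeR adjusted p = 1.48e-09). The level rests on 22400 to 36694 counts per library, and 98.6% of tested genes had a lower CPM. Without shCK5-22 replicate 1 the log2 fold change was -0.37.

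CDH3 (chromosome 16, 68636189 to 68722616, plus strand), the P-cadherin gene, had the largest fall among the members. It stood at 392.8, 395 and 386 CPM in shCK5-22, against 530.6, 556.2 and 541 CPM in shControl, and the groups were again fully apart. The means were 391 ± 4.73 and 543 ± 12.9 CPM (shCK5-22 and shControl, SD, n = 3 each). The log2 fold change was -0.47 (SE 0.0281, edgeR adjusted p = 2.69e-11), a level 27.9% lower, and it was -0.47 without shCK5-22 replicate 1. In absolute size this change exceeded that of 81.7% of tested genes, and that of CDH1 exceeded 74.7%.

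Most breast epithelial markers moved with these falls: 8 of 11 were lower and 0 higher, against 16.8% of all tested genes lower. Their median log2 fold change was -0.37, where that of all tested genes was -0.01. KRT8, the most abundant of the 11, and KRT18 had log2 fold changes of 0.05 and 0.06 and did not pass (adjusted p = 0.181 and 0.149). Without shCK5-22 replicate 1, 2 of the 11 were called higher. The summed level of the 11 was 9452 to 10139 CPM in shCK5-22 and 11397 to 12019 CPM in shControl. EPCAM, an epithelial surface adhesion protein, was at 236 ± 1.88 CPM in shCK5-22 and 234 ± 1.16 CPM in shControl and did not pass (adjusted p = 0.746). In bulk RNA, fewer cells that express a gene and less of its RNA per cell cannot be told apart. The part of this marker shift in the cadherin result was not tested.

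CDH3 and CDH1 are direct neighbours, with 14608 bases between the end of the first and the start of the second, both on the plus strand. Their fall was not shared by most genes around them. Within 500 kb on either side, 14 other protein-coding genes were tested, of which 1 fell, 2 rose and 11 did not pass the test. Their median log2 fold change was 0.05. Among all tested genes 16.8% were lower and 17.4% higher, so these counts do not set the region apart. The gene that fell was ESRP2, an epithelial splicing regulator (log2 fold change -0.26, adjusted p = 1.45e-05). Those that rose were HAS3, a hyaluronan synthase, by 0.37 (adjusted p = 0.000724), and UTP4, a ribosome biogenesis factor, by 0.16 (adjusted p = 0.000625). SMPD3, at 0.926 CPM in shCK5-22 and 1.28 CPM in shControl, had a log2 fold change of -0.46 (SE 0.223, adjusted p = 0.121). It did not pass at this low level, though the value is near that of CDH3. The nearest tested neighbours, ZFP90 and TANGO6, had log2 fold changes of 0.11 and 0.12 and did not pass. These genes were chosen for their position alone.

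**Figure D2:**
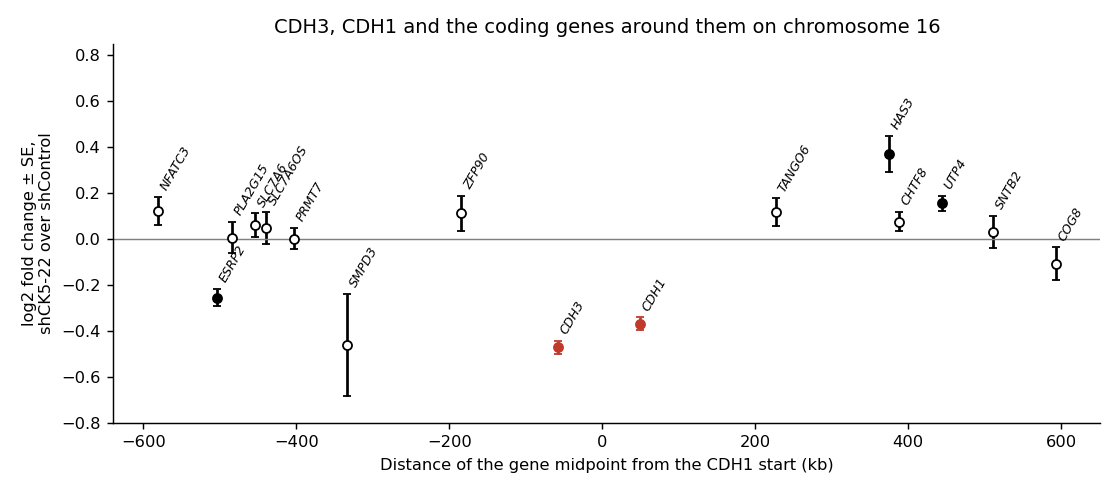
The log2 fold change of shCK5-22 over shControl (vertical axis, ± SE) of CDH3 and CDH1 (red) and the 14 other tested coding genes within 500 kb (black), by the distance of each gene's midpoint from the CDH1 start in kb. Filled points passed the test. CDH3 and CDH1 lie at -0.47 and -0.37, while the genes on both sides of them mostly lie near 0.

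Of the cadherins known from mesenchymal cells, CDH11 rose and CDH2 did not pass the test. CDH2 (chromosome 18, 27950966 to 28177446, minus strand), the N-cadherin gene, was barely detected in either group. It had 0.736, 1.04 and 1 CPM in shCK5-22 and 0.999, 0.874 and 0.92 CPM in shControl, from 48 to 62 counts per library, and the groups overlapped. Its log2 fold change was -0.01 (edgeR adjusted p = 0.983). The 95% interval of -0.50 to 0.48 shows how large a change in either direction this depth could miss. Leaving out shCK5-22 replicate 1, the lowest of its group, gave 0.14.

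CDH11 (chromosome 16, 64943753 to 65126112, minus strand), a type II cadherin of mesenchymal and bone-forming cells, was the 1 member that rose. It had 105, 94 and 78 counts in shCK5-22 libraries, or 1.61, 1.57 and 1.48 CPM, against 8, 16 and 4 counts in shControl libraries, or 0.166, 0.245 and 0.0634 CPM. The groups were far apart, but both levels were low: 23.1% of tested genes had a lower mean. CDH11 was the 1 member that passed the test and differed at least 2-fold, as did 3.56% of all tested genes. The fitted value was 3.27 on the log2 scale (95% interval 2.59 to 3.96, edgeR adjusted p = 9.41e-08), and it was 3.25 without shCK5-22 replicate 1. It was 2.87 without shControl replicate 3 and 3.81 without shControl replicate 2. The filter on low counts was met by all 3 shCK5-22 libraries and by 2 shControl libraries, so CDH11 was tested only because of the group in which it is high.

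Fibroblast markers were mixed beside CDH11. Of 10 such markers 6 were tested, and 2 rose and 2 fell, with a median log2 fold change of 0.19. Their summed level was 29.4 to 30.6 CPM in shCK5-22 and 33.2 to 34.8 CPM in shControl, most of it from COL1A1. Without COL1A1 the other 9 summed to 2.46 to 3.22 CPM in shCK5-22 and 2.12 to 2.21 CPM in shControl, higher in every knockdown library. The higher sum was not shared by all 9. PDGFRB averaged 1.08 CPM in shCK5-22 and 0.0518 CPM in shControl, while FAP averaged 0.871 CPM in shCK5-22 and 1.59 CPM in shControl. PDGFRA and THY1 were at 0 in every library. PDGFRB, a growth factor receptor of stromal cells, rose to 46 to 80 counts per shCK5-22 library, against 0 to 6 per shControl library, and LUM, a matrix proteoglycan, rose to 16 to 26 counts, against 4 to 10. Both were tested only because of the group in which they are high, since 0 shControl libraries reached the minimum of the filter. The count of risers was 0 under a filter of 1 CPM in 3 libraries and 1 with halved counts. COL1A1, a chain of fibrillar collagen, and FAP, a protease of activated fibroblasts, fell by 0.25 and 0.86 on the log2 scale. The part of these markers in the CDH11 result was not tested.

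CDH13 (chromosome 16, 82626803 to 83800640, plus strand), the T-cadherin gene, had 0.644, 0.77 and 0.87 CPM in shCK5-22 and 0.499, 0.705 and 0.507 CPM in shControl. The groups overlapped on 24 to 46 counts per library. A log2 fold change of 0.40 was fitted, with a 95% interval of -0.19 to 0.99 (edgeR adjusted p = 0.313). Without shCK5-22 replicate 1 it was 0.51 (adjusted p = 0.234).

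**Figure D3:**
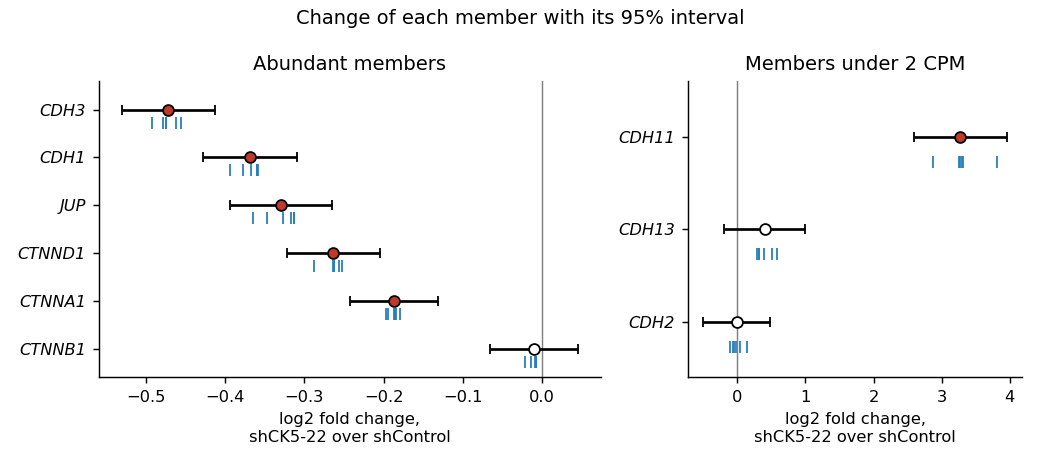
The log2 fold change of shCK5-22 over shControl (horizontal axes) with its 95% interval for the 6 abundant members (left) and the 3 members under 2 CPM (right, on a wider scale). Red points passed the test, open points did not, and blue ticks are the values with each library left out. The intervals of CDH3, CDH1, JUP, CTNND1 and CTNNA1 lie wholly below 0, and that of CTNNB1 runs from -0.07 to 0.04.

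Among the catenins, 3 of 4 fell and CTNNB1 did not. JUP (chromosome 17, 41754604 to 41786931, minus strand), the plakoglobin gene, had the highest level per kb of the members in both groups. In CPM it stood at 504.5, 528.7 and 514.6 CPM in shCK5-22 and at 620.3, 664.1 and 660 CPM in shControl, with no overlap. The means were 516 ± 12.2 CPM in shCK5-22 and 648 ± 24.2 CPM in shControl (SD, n = 3 each), with a log2 fold change of -0.33 (SE 0.0308, edgeR adjusted p = 3.18e-08). It was -0.31 without shCK5-22 replicate 1.

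CTNND1 (chromosome 11, 57753243 to 57819546, plus strand), the delta-catenin gene, whose product holds cadherins at the cell surface, had 290.1, 289.9 and 290 CPM in shCK5-22, against 338.2, 352.3 and 353.6 CPM in shControl. The knockdown libraries were nearly identical and all below the controls. It fell by 0.26 on the log2 scale (SE 0.0283, edgeR adjusted p = 2.42e-07), and the log2 fold change was -0.26 without shCK5-22 replicate 1 too.

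CTNNA1 (chromosome 5, 138610967 to 138935034, plus strand), the alpha-catenin gene, had the smallest fall that passed. Its level was 485.8, 474.2 and 478.3 CPM in shCK5-22 and 543.6, 547.8 and 545.9 CPM in shControl, again with no overlap. The log2 fold change was -0.19 (SE 0.0266, edgeR adjusted p = 1.07e-05), which is 12.1% lower, and -0.20 without shCK5-22 replicate 1.

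CTNNB1 (chromosome 3, 41194741 to 41260096, plus strand), the beta-catenin gene, had 405.7, 406.1 and 409.6 CPM in shCK5-22 and 406.6, 411.6 and 412.1 CPM in shControl, with groups that overlapped. The means were 407 ± 2.15 CPM in shCK5-22 and 410 ± 3.06 CPM in shControl (SD, n = 3 each). Its log2 fold change was -0.01 with a 95% interval of -0.07 to 0.04 (edgeR adjusted p = 0.81). Without shCK5-22 replicate 1 it was -0.01 (adjusted p = 0.866). That interval, from all libraries, does not reach the change of CTNNA1, the smallest that passed among the members.

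**Figure D4:**
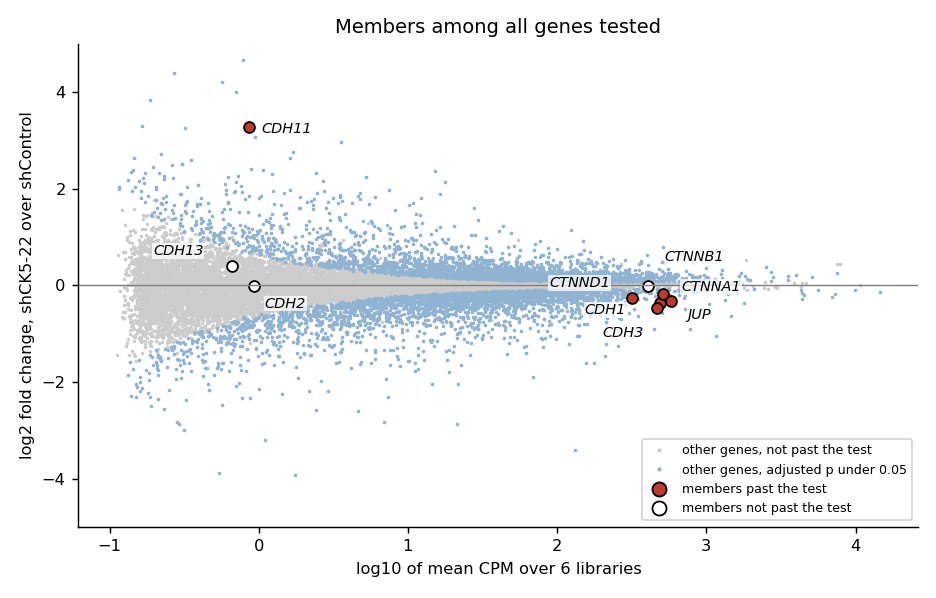
The log2 fold change of shCK5-22 over shControl (vertical axis) against the log10 of the mean CPM (horizontal axis) for all 18008 genes tested. Large circles are the members, filled red where past the test. The 6 abundant members sit at the right, at or slightly below 0, while CDH11 stands high among the weakly expressed genes.

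Levels of different genes were compared per kb of merged exons. In shCK5-22 the order was JUP (104 CPM per kb), CDH1 (69.4), CDH3 (62.7), CTNNA1 (54.3), CTNNB1 (34.1) and CTNND1 (32.96). In shControl it was JUP (131 CPM per kb), CDH1 (89.6), CDH3 (87), CTNNA1 (61.8), CTNND1 (39.6) and CTNNB1 (34.4). The libraries of neighbours in these orders did not overlap, except those of CDH1 and CDH3 in shControl. CDH2, CDH11 and CDH13 were each below 1 CPM per kb in both groups. The order depends on the length used: with the longest transcript in place of merged exons, CTNNA1 came second after JUP in both groups.

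The balance between members was measured by ratios within a library, which do not depend on the scaling between libraries. These were 5 comparisons by an exact two-sided permutation test. With 3 against 3 libraries it cannot give a p below 0.1, so none could pass, and the values are given as a description. The CDH3 to CDH1 ratio per kb was 0.904 in shCK5-22 and 0.971 in shControl, a log2 difference of -0.10, with groups that did not overlap (exact permutation p = 0.1, 0.125 adjusted over the 5). CDH1 made up 52.4% ± 0.113 of the summed cadherin level in shCK5-22 and 50.7% ± 0.338 in shControl (SD, n = 3 each, exact permutation p = 0.1). The ratio of JUP to CTNNB1, the alternative partners of the cadherin tail, was 3.06 in shCK5-22 and 3.81 in shControl (log2 difference -0.32, exact permutation p = 0.1). With the longest transcript as length these ratios were 1.77 in shCK5-22 and 2.21 in shControl. The log2 difference between the groups is the same by construction, because the lengths cancel, so this is no check on it. The CDH2 to CDH1 ratio overlapped between the groups (log2 ratio -8.55 ± 0.27 in shCK5-22 and -8.90 ± 0.133 in shControl, exact permutation p = 0.2).

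Summed over the members, cadherins stood at 133 ± 1.57 CPM per kb in shCK5-22 and 177 ± 4.18 in shControl, and catenins at 226 ± 1.8 in shCK5-22 and 267 ± 6.34 in shControl (SD, n = 3 each). The ratio of summed catenins to summed cadherins was 1.7 in shCK5-22 and 1.51 in shControl, a log2 difference of 0.18, with no overlap (exact permutation p = 0.1, 0.125 adjusted over the 5). With the longest transcript as length the ratio was 2.39 in shCK5-22 and 2.08 in shControl.

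**Figure D5:**
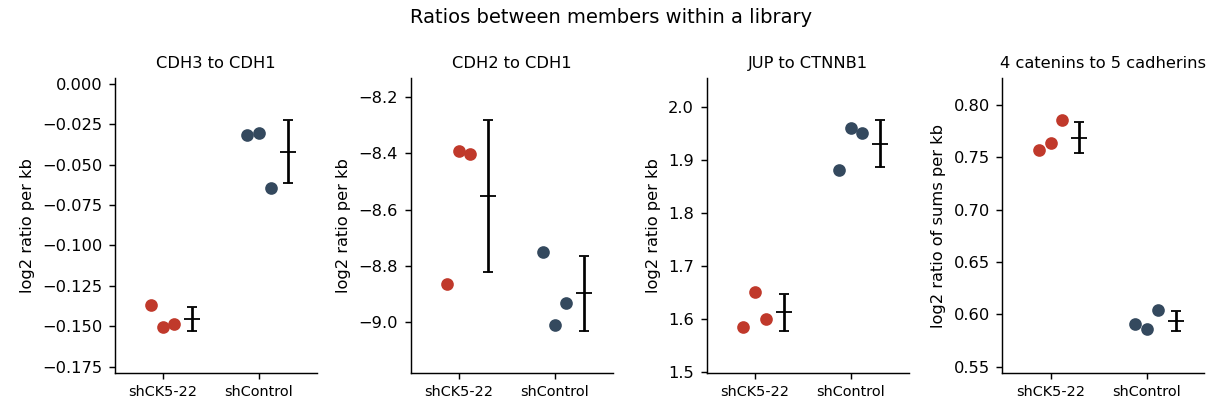
Log2 ratios between members within each library (vertical axes, levels per kb of merged exons, not starting at 0). Points are libraries and black bars are mean ± SD of the 3 shCK5-22 and 3 shControl libraries. The CDH3 to CDH1 and JUP to CTNNB1 ratios are lower and the catenin to cadherin ratio is higher in every shCK5-22 library than in any shControl library, while the CDH2 to CDH1 ratio overlaps.

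Counts for the related genes that follow stand against 17.4% of all tested genes higher and 16.8% lower. Among the 2183 genes with a mean of at least 100 CPM, 36.9% were higher and 20.7% lower. The lists of actin linkers and nectins and of trafficking genes hold many genes of that level. Of 8 other genes listed beside the catenins, 2 rose, 0 fell and 6 did not pass, near the shares of all tested genes (median log2 fold change 0.13). The 8 include CTNNBIP1 and CTNNBL1, and so reach beyond the catenin family. CTNNAL1, an alpha-catenin relative, rose to 235 ± 1.32 CPM in shCK5-22, against 189 ± 1 CPM in shControl, by 0.32 on the log2 scale (adjusted p = 1.25e-08). PKP4, a relative of delta-catenin, rose by 0.28 (adjusted p = 3.81e-06). The counterparts of the members in other tissues, CTNNA2, CTNNA3 and CTNND2, were at 2.26 CPM or less in both groups. ARVCF, the closest relative of delta-catenin, was at 6.01 CPM in shCK5-22 and 5.72 CPM in shControl and did not pass.

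Of 14 further classical and type II cadherins, 6 were tested. CDH4 (R-cadherin) rose to 56.2 ± 2.18 CPM in shCK5-22, against 46.2 ± 1.13 CPM in shControl, by 0.28 on the log2 scale (adjusted p = 2.79e-05), and the other 5 did not pass. Without shCK5-22 replicate 2 the count of risers was 3, and without shControl replicate 3 it was 2. Among 16 atypical cadherins 14 were tested, and 2 rose, 3 fell and 9 did not pass. CELSR2, a planar polarity cadherin, fell to 41.2 ± 2.06 CPM in shCK5-22, against 60 ± 2.14 CPM in shControl (log2 fold change -0.54, adjusted p = 7.49e-09). FAT4 rose by 0.75 (adjusted p = 0.00392), to 2.49 CPM in shCK5-22, against 1.49 CPM in shControl, and CDH16 (kidney-specific cadherin) by 0.66 (adjusted p = 0.00695). FAT1 fell by 0.17 (adjusted p = 0.000122).

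Actin linkers and nectins, which connect or accompany the cadherin complex, were mixed, with 7 of 18 higher, 3 lower and a median log2 fold change of 0.03. LIMA1, an actin-bundling protein that binds alpha-catenin, rose to 288 ± 7.56 CPM in shCK5-22, against 224 ± 3.58 CPM in shControl, by 0.37 on the log2 scale (adjusted p = 3.25e-09). NECTIN3 rose by 0.35 (adjusted p = 0.000398) and NECTIN1, its binding partner across the junction, fell by 0.33 (adjusted p = 3.33e-05). Vinculin (VCL), which binds stretched alpha-catenin, was at 461 ± 8.6 CPM in shCK5-22 and 472 ± 14.8 CPM in shControl and did not pass (adjusted p = 0.423).

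Genes of cadherin trafficking and turnover were higher in 6 of 18 cases and lower in 4, many of them by little. Without shControl replicate 3 these counts were 3 and 2. The count of lower genes was 2 without shCK5-22 replicate 2 or shControl replicate 2, and 1 without shCK5-22 replicate 3. SRC, a kinase that phosphorylates junction proteins, fell to 46.3 ± 0.971 CPM in shCK5-22, against 84.7 ± 3.22 CPM in shControl (log2 fold change -0.87, adjusted p = 4.16e-13). Of the receptor tyrosine phosphatases of junctions in this list, PTPRF rose by 0.65, to 833 ± 11.4 CPM in shCK5-22, against 532 ± 7.06 CPM in shControl (adjusted p = 9.54e-14), and PTPRM by 0.27 (adjusted p = 1.23e-05). PTPRK was at 146 ± 10.3 CPM in shCK5-22 and 139 ± 4.55 CPM in shControl and did not pass (adjusted p = 0.214).

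Genes listed as regulators of CDH1 transcription changed in 15 of 22 tested cases, 6 higher and 9 lower, where 34.2% of all tested genes changed. The 9 lower include ESRP1 and ESRP2, which are splicing regulators. Of the E-box repressors of CDH1, ZEB1 stood at 9.4 ± 0.849 CPM in shCK5-22 and 2.66 ± 0.0854 CPM in shControl, ZEB2 at 4.92 ± 0.528 CPM in shCK5-22 and 1.41 ± 0.146 CPM in shControl, and both rose (log2 fold change 1.82 and 1.81). SNAI1 rose by 0.82 (adjusted p = 0.00166), to 2.73 CPM in shCK5-22, against 1.55 CPM in shControl. SNAI2, a further repressor of this kind, fell by 0.12 (adjusted p = 0.0129), to 70 ± 1.26 CPM in shCK5-22, against 76.1 ± 0.947 CPM in shControl. That call was lost without shCK5-22 replicate 3 (adjusted p = 0.0542), without shControl replicate 2 (0.0552) and at the threshold of 0.01. Its adjusted p ranged from 0.00501 to 0.0552 over the alternatives. A rise was not general among the repressors listed. TWIST1, TWIST2, TCF3 and TCF4 did not pass (adjusted p = 0.811, 0.928, 0.0754 and 0.901). KLF8 fell (log2 fold change -0.37, adjusted p = 9.996e-05). FOXC2 and EZH2, from the same list, rose (log2 fold change 0.52 and 0.14, adjusted p = 0.0248 and 0.00191).

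Factors that maintain epithelial gene expression were among those that fell. GRHL2, an activator of CDH1, fell to 147 ± 5.37 CPM in shCK5-22, against 193 ± 3.92 CPM in shControl (log2 fold change -0.39, adjusted p = 5.02e-09). ESRP1, a splicing regulator of epithelial isoforms, including that of CTNND1, fell by 0.28 (adjusted p = 2.33e-07). Counts per gene do not show which isoforms of CTNND1 were present. KLF4, from the same list of regulators, went the other way. It rose by 0.13 to 96.6 ± 3.63 CPM in shCK5-22, against 88.5 ± 1.01 CPM in shControl (adjusted p = 0.00872).

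The beta-catenin destruction complex and its nuclear partners had 4 of 18 genes higher, 3 lower and 11 that did not pass (median log2 fold change 0.01). The count of higher genes was 2 without shCK5-22 replicate 3, shControl replicate 2 or shControl replicate 3, and with no scaling beyond library size. TCF7L1, a TCF factor that mainly represses Wnt targets, fell to 4.9 ± 0.857 CPM in shCK5-22, against 8.83 ± 1.08 CPM in shControl (log2 fold change -0.85, adjusted p = 1.84e-05). BCL9, a nuclear co-activator of beta-catenin, fell by 0.28 (adjusted p = 0.000335), to 23.5 CPM in shCK5-22, against 28.4 CPM in shControl. The more abundant BCL9L rose by 0.10 (adjusted p = 0.0082), to 347 CPM in shCK5-22, against 323 CPM in shControl. LEF1 rose by 0.47 (adjusted p = 0.00141), to 6.06 CPM in shCK5-22, against 4.36 CPM in shControl. AXIN2, a target of beta-catenin signalling, stood at 1.08 ± 0.157 CPM in shCK5-22 and 1.3 ± 0.445 CPM in shControl and did not pass (adjusted p = 0.469).

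The genes whose library profile was most like that of CDH1 were sought among 7315 genes with a mean of at least 20 CPM, by the mean absolute difference in centred log2 CPM over the 6 libraries. The closest were LSM14A (0.0185), SFXN1 (0.0202) and SPATS2L (0.0205). JUP, the closest of the members, ranked number 10 (0.0229), CDH3 number 230 (0.0517) and CTNND1 number 246 (0.0527). This likeness is a description of 6 libraries in 2 groups.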

How the data were processed

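The authors deposited raw read counts, 1 table with a column for each library. Cutadapt, STAR, SAMtools and Cufflinks, with build GRCh38, are listed per the submitters' processing notes. For the counts themselves, the sources used here name no tool, annotation or strand setting. Of 56505 rows, 27 with a calendar date for a symbol (at most 0.175% of a library) were left out. Among counts of 1 to 20, between 86.7% and 89.1% were even in each library, so low counts may rest on fewer fragments than reads. A floor of 3 counts is 0.046 to 0.0624 CPM and covers counting error only.

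Counts were fitted with edgeR 4.0.16 (R 4.3.3), robust quasi-likelihood, TMM and filterByExpr. The script was tested on simulated data. CPM values use TMM-scaled library sizes. SEs and 95% intervals were derived from each gene's F value and fold change. Coordinates and lengths come from GENCODE release 29. Nothing in the labels ties replicates to separate cultures. What the p-values measure is therefore the spread among libraries alone, and that spread may be technical.

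The members and gene lists were chosen with earlier results of these data known. Named are all members, KRT5, the 3 largest changes past the test per list (mean of at least 1 CPM), and ZEB1, ZEB2, SNAI1, SNAI2, GRHL2 and ESRP1. Other genes named were chosen after their values were seen. Alternatives were RLE, upper quartile and library-size scaling, other filters, a threshold of 0.01, DESeq2 1.42.0, limma-voom (limma 3.58.1), a replicate block, each library left out, and, added after seeing the data, halved counts. Log2 ratios were computed per kb.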

Additional observations from a re-analysis of the deposited data

How the results depend on the processing

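The counts of members past the test, 3 cadherins and 3 catenins, were the same under all 16 alternatives, as were the directions of the 6 members that passed. Log2 fold changes lay between -0.39 and -0.36 for CDH1, -0.49 and -0.45 for CDH3, -0.36 and -0.31 for JUP, -0.29 and -0.25 for CTNND1, -0.20 and -0.18 for CTNNA1, and 2.87 and 3.81 for CDH11. CDH2, which never passed, changed sign with the library left out, between -0.10 and 0.14, and the cause was not tested. With the length of the longest transcript, the log2 difference in the catenin to cadherin ratio was 0.20. All genes called ran from 4382 at a threshold of 0.01 to 6743 with the replicate block. Same-numbered libraries had deviations correlated at 0.0647, 0.132 and -0.0226, so the numbers were not taken as pairs, and the block changed no member's call. Halved counts left every member's call in place. Under a filter of 1 CPM in 3 libraries CDH2 and CDH13 have no value. Not every library correlated best with its own number. CDH2, CDH11 and CDH13, at 4 to 105 counts, are limited by depth.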

Other observations

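Cadherins known from other tissues were also measured in these epithelial cells. CDH5, the VE-cadherin gene of endothelium, had a mean of 22.2 ± 5.23 CPM in shCK5-22 and 21.2 ± 2.3 CPM in shControl (SD, n = 3 each), on 988 to 1748 counts per library, and did not pass the test (edgeR adjusted p = 0.839). Of the 9 other endothelial markers 8 were tested, with 1 higher and 1 lower. ROBO4, a guidance receptor of endothelium, rose to 28.4 ± 0.49 CPM in shCK5-22, against 12.2 ± 0.596 CPM in shControl (edgeR adjusted p = 1.56e-12), and PECAM1, an adhesion protein of endothelium and platelets, fell to 2.15 ± 0.728 CPM in shCK5-22, against 5.02 ± 1.66 CPM in shControl (log2 fold change -1.20, edgeR adjusted p = 0.0429). The count of lower genes was 0 without shCK5-22 replicate 2, shCK5-22 replicate 3 or shControl replicate 3, and the count of higher genes was 2 without shCK5-22 replicate 2. VWF, KDR, TEK and CLDN5 stayed at 0.799 CPM or less in both groups. All 10 endothelial markers, CDH5 included, summed to 53.5 to 67.4 CPM in shCK5-22 and 42 to 50.3 CPM in shControl. The 9 without CDH5 summed to 37.02 to 40.6 CPM in shCK5-22 and 22.7 to 26.5 CPM in shControl. ROBO4, which rose, was the most abundant of these 9 in both groups. CDH12, a type II cadherin of brain, had 5.33 ± 0.0741 CPM in shCK5-22 and 4.4 ± 0.355 CPM in shControl and did not pass (edgeR adjusted p = 0.0574).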
